A study of Mus musculus with 2 samples.

Results

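The barcodes described here are the 5% of each microglial library in which the largest share of transcripts came from Malat1, a long noncoding RNA held in nuclear speckles. They were chosen among droplet barcodes with at least 1500 unique molecular identifiers (UMIs, each standing for 1 captured transcript molecule), at least 200 detected genes and at most 10% of UMIs from mitochondrially coded genes. In the FGR library 431 of 8618 such barcodes were chosen, and in the Control library 534 of 10687, together 965 of 19305. Each library was compared with its own remaining barcodes, 8187 in FGR and 10153 in Control. Hippocampal microglia came from mice aged 3 weeks, with 1 library from mice with fetal growth restriction (FGR) and 1 from Control mice. Both groups carried Tmem119-tdTomato+/-, a fluorescent reporter of the microglial gene Tmem119, and cells positive for it had been sorted by flow cytometry before droplet-based 3′ sequencing. Neither the way growth was restricted nor the number of animals pooled is stated in the labels.

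With 1 library per group there is no replicate error, so no test was made, and every interval below is a 95% interval that covers counting error only. The Malat1 share itself chose the barcodes, so the comparison of Malat1-rich with other barcodes is a description.

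A cell's RNA is unequally divided between nucleus and cytoplasm. Malat1 and Neat1 stay in the nucleus, in or beside the speckles where splicing factors gather, and Kcnq1ot1 stays at the chromosome it silences. Messenger RNAs of ribosomal proteins, translation factors and most metabolic enzymes are exported and translated in the cytoplasm, and the mitochondrially coded RNAs stay inside mitochondria. In droplet libraries a high Malat1 share is commonly read as a high proportion of nuclear RNA, for example from a cell whose membrane has opened or from a bare nucleus. Whether that applies to these barcodes was not tested.

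Malat1 lies at chr19:5795690-5802672 on the minus strand (mouse build GRCm38, GENCODE M21), as a single exon of 6983 bases. Oligo-dT primers, used in 3′ libraries, can pair with a run of A inside a transcript as well as with a poly(A) tail, so the runs of at least 10 A in the annotated Malat1 transcript and in the nuclear RNA 2900060B14Rik are shown, with the run in capitals and up to 20 bases on either side. In Malat1 the only such run covers transcript bases 6674 to 6685, with 298 bases after it. The run in 2900060B14Rik ends the annotated transcript of 616 bases, an antisense gene at chr1:118458652-118459267.
Malat1, chr19:5795968-5796019, minus strand: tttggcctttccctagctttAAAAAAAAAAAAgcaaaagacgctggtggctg
2900060B14Rik, chr1:118458652-118458688, minus strand: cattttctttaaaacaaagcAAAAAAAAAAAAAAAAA

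Malat1 supplied a median of 5.07% of a barcode's UMIs in the Malat1-rich barcodes of the FGR library, against 2.35% in the other barcodes. In the Control library the medians were 4.33% and 2.18%. The highest share was 14.6% in FGR and 9.75% in Control. The edge of the choice fell on a continuous slope with no gap. In FGR the last barcode inside had 210 Malat1 UMIs of 4763 (4.409%) and the first outside had 191 of 4334 (4.407%). In Control the last inside had 156 of 3996 (3.9039%) and the first outside 128 of 3279 (3.9036%).

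**Figure D1:**
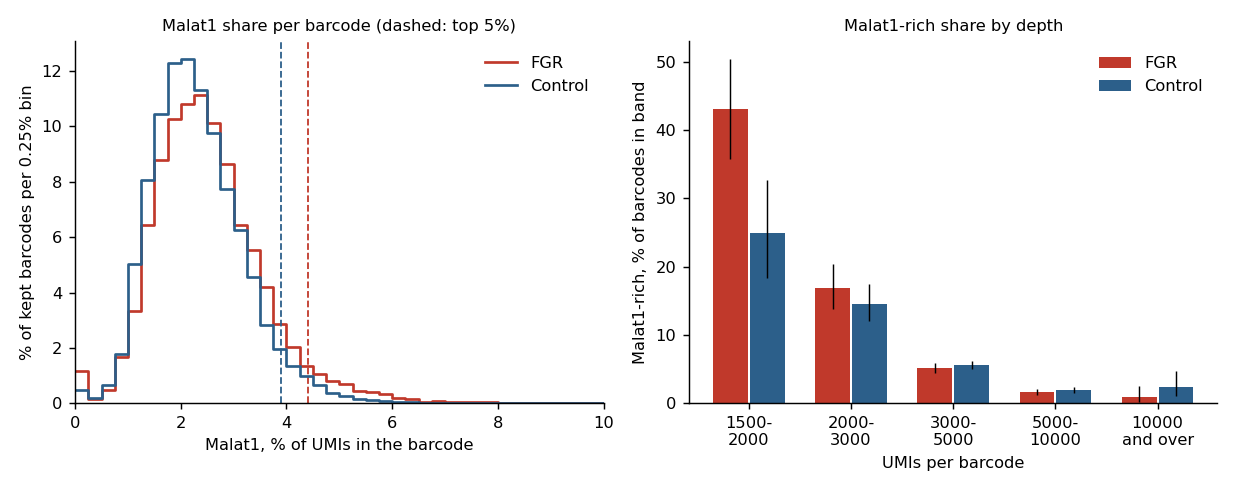
Left, the distribution of the Malat1 share (percent of UMIs in a barcode) over all kept barcodes, as percent of barcodes per bin, with dashed lines at each library's top 5%. Right, Malat1-rich barcodes as percent of all kept barcodes in each band of UMIs per barcode, with exact binomial 95% intervals. The share of Malat1-rich barcodes was 43.0% in FGR and 25% in Control between 1500 and 2000 UMIs, and 1.66% and 1.88% between 5000 and 10000.

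Because the threshold was set within each library, it stood higher in FGR. At or above the Control threshold were 770 FGR barcodes, 8.93% of them (exact binomial 95% interval 8.34 to 9.56). Over the FGR threshold were 237 Control barcodes, 2.22% (1.95 to 2.51). Over all kept barcodes the share had an SD of 1.09 percentage points in FGR and 0.885 in Control. The counting SD, averaged over barcodes of all depths, was 0.237 and 0.229. It is larger in shallow barcodes, among which the Malat1-rich share was highest. When each barcode's UMIs were divided at random into 2 equal parts and the top 5% chosen on the first, the summed Malat1 share of UMIs in the unused part was 5.11% in FGR, against 2.34% in the other barcodes, and 4.25% in Control, against 2.20%. All 431 FGR and all 534 Control barcodes chosen in this way lay above the other barcodes' median in the unused part. The ranking was less exact than that: after every barcode was thinned to 1500 UMIs, 355 of the 431 FGR barcodes (82.4%) and 410 of the 534 Control barcodes (76.8%) were chosen again.

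The Malat1-rich barcodes were shallow. They held a median of 3508 UMIs and 1697 genes in FGR, against 4983 UMIs and 2085 genes in the other barcodes, and 3756 UMIs and 1794 genes in Control, against 4704 and 2067. At an equal 1500 UMIs per barcode, with no barcode left out, the number of genes was close: a median of 896 in FGR Malat1-rich barcodes, against 887 in the others, and 927 in Control, against 915. The share that was Malat1-rich was 43.0% of FGR barcodes and 25% of Control barcodes with 1500 to 2000 UMIs, and lower in every deeper band up to 10000 UMIs, as the plot of the Malat1 share by depth shows. Barcodes of 2000 to 3000 UMIs gave 16.9% in FGR and 14.6% in Control, and those of 3000 to 5000 UMIs gave 5.19% and 5.62%.

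The barcodes carried microglial markers. At least 6 of the 12 microglia markers fixed in the list (among them Tmem119, P2ry12, Cx3cr1 and the complement gene C1qa) were detected in 412 of 431 FGR barcodes (95.6%), against 99.6% of the other barcodes, and in 532 of 534 Control barcodes (99.6%), against 99.8%. All 12 were detected in 58.5% of FGR Malat1-rich barcodes, against 85.6% of the deeper others, and in 67.6% of Control ones, against 85.6%. The summed level of the 12 markers was 37100 counts-per-million (CPM) in FGR Malat1-rich barcodes, against 43695 in the others, a ratio of 0.849 (0.842 to 0.856). In Control it was 42796, against 43775, a ratio of 0.978 (0.971 to 0.984). These and all later CPM are counts-per-million of the UMIs other than Malat1, because its own share would otherwise lower all other levels.

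A few Malat1-rich barcodes carried markers of other cells, mostly in FGR. Markers of other brain and blood cells made up over 1% of UMIs in 12 of the 431 FGR barcodes (2.78%), against 0.354% of the others, and in 3 of the 534 Control barcodes (0.562%), against 0.345%. One FGR barcode with 46239 UMIs held 2.92% of all UMIs of the FGR Malat1-rich barcodes. The summed level of the 10 oligodendrocyte markers was 3746 CPM in the FGR group, against 68.4 in the other barcodes, and 140 CPM, against 65.2, when barcodes with over 1% markers of other cells were left out before the choice. In Control this level was 154, against 156. The 12 vascular and fibroblast markers summed to 568 CPM in FGR, against 115, and to 183 in Control, against 59.0. Without barcodes over 1% other-type markers these levels were 127 in FGR, against 39.7, and 22.1 in Control, against 37.7, so that the direction turned in Control. The 7 astrocyte markers summed to 733 CPM in FGR, against 323, and to 208 in Control, against 203. Without those barcodes they summed to 372 in FGR, against 317, and to 209 in Control, against 200.3. Neuron markers were near 0, at 12.7 CPM in FGR, against 2.22, and 5.99 in Control, against 7.19. Of the kept barcode sequences 31 occurred in both libraries, and 0 of these were Malat1-rich. Doublets were not removed.

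Nuclear long noncoding RNAs other than Malat1 were higher in the Malat1-rich barcodes of both libraries. Of the 19 such genes in the list, 7 reached the level at which genes were measured (a mean of the Malat1-rich and other barcodes of at least 50 CPM in both libraries). 2900060B14Rik reached it only through its level in the Malat1-rich barcodes. The other 6 all had a ratio above 1 in each library. The summed list stood at 2171 CPM in FGR Malat1-rich barcodes, against 1296 in the others, a ratio of 1.68 (1.62 to 1.74). In Control it was 1943, against 1329, a ratio of 1.46 (1.42 to 1.51). The median log2 ratio of the 6 was 0.62 in FGR and 0.54 in Control, beside 0.03 and 0.07 over the 3204 genes with at least 50 CPM in the other barcodes of both libraries.

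Gm26917, a predicted noncoding RNA at chr17:39843013-39846341 beside genes known to collect reads of ribosomal RNA, had the highest ratio of the 7 in both libraries. It reached 193 CPM in FGR Malat1-rich barcodes, against 65.4 in the others, a ratio of 2.95 (2.60 to 3.33), and 129 in Control, against 70.0, a ratio of 1.85 (1.62 to 2.09). Its UMIs were spread over 175 FGR and 180 Control Malat1-rich barcodes. The antisense RNA 2900060B14Rik stood at 107 CPM in FGR, against 43.3, a ratio of 2.48 (2.10 to 2.92). In Control its level was 75.4, against 42.4, a ratio of 1.78 (1.497 to 2.10). Both genes were higher in either library, with a larger ratio in FGR. The difference between the libraries was not tested, and the Malat1 threshold also differed between them. With a minimum of 3000 UMIs the Control ratio of 2900060B14Rik was 1.21, and its interval held 1.

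Neat1, the scaffold of paraspeckles and a neighbour of Malat1 on chromosome 19, stood at 537 CPM in FGR, against 336, a ratio of 1.60 (1.49 to 1.71). In Control it was 343, against 264, a ratio of 1.30 (1.205 to 1.41). Mir99ahg, the host of a microRNA cluster, had ratios of 1.79 (1.63 to 1.97) in FGR and 1.37 (1.26 to 1.48) in Control. The other 3 had nearly the same ratio in both libraries. Dleu2, a microRNA host, had 1.46 in FGR and 1.47 in Control, the imprinting RNA Kcnq1ot1 had 1.48 and 1.56, and Tug1 had 1.43 and 1.44. Of the 12 listed genes that were not measured, Jpx, an activator of Xist known from X inactivation, had 37.4 CPM in FGR, against 22.2, and 33.4 in Control, against 19.5. Meg3 was present in so few barcodes, 10 in FGR and 4 in Control, with up to 19 of the 23 Control UMIs in 1 of them, that its ratio says nothing of the group. Noncoding RNAs that host small nucleolar RNAs or are exported, such as Gas5, differed little: their summed ratio was 1.08 (1.02 to 1.14) in FGR and 1.05 (1.01 to 1.10) in Control. Of its 7 measured genes 0 passed 1.2-fold in both libraries, where 2.89% of all measured genes were higher and 2.8% lower, a share at which 7 genes say little.

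**Figure D2:**
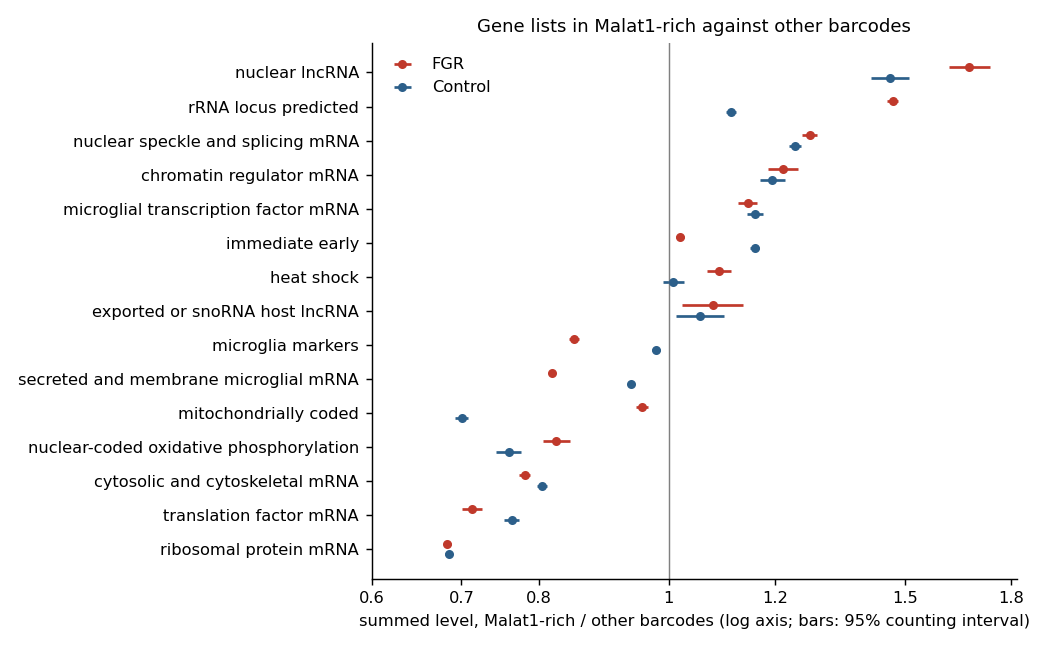
Summed level of the 15 plotted gene lists, which leave out the markers of other cell types, in Malat1-rich over other barcodes on a log axis, with FGR above Control in each row and bars for the exact 95% counting interval. Nuclear lncRNAs (1.68 in FGR, 1.46 in Control) stood highest among them and ribosomal protein mRNAs (0.683 and 0.685) lowest.

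Messenger RNAs of splicing and speckle proteins, many of which are known to retain introns and to linger in the nucleus, were higher as a group. All 30 measured of the 31 listed had a ratio above 1 in each library, and 10 of them passed 1.2-fold in both. Over all measured genes 2.89% passed 1.2-fold higher in both libraries. The summed list had a ratio of 1.27 (1.26 to 1.29) in FGR and 1.24 (1.23 to 1.26) in Control. Pnisr, a serine and arginine rich speckle protein, stood at 321 CPM in FGR, against 199, a ratio of 1.61 (1.47 to 1.77), and at 312 in Control, against 207, a ratio of 1.51 (1.39 to 1.63). The splicing regulator Tra2a had ratios of 1.54 in FGR and 1.35 in Control. Mdm4, a p53 inhibitor under splicing control, had 1.59 and 1.39. Clk1, a kinase of splicing factors whose own introns are often retained, had 1.29 and 1.35. Chromatin regulators showed smaller ratios, with a summed 1.22 (1.19 to 1.25) in FGR and 1.19 (1.17 to 1.22) in Control and 4 of 19 past 1.2-fold in both. Among them Tet2, which oxidises methylated cytosine, had 1.75 in FGR and 1.498 in Control, and Ankrd11, a partner of histone deacetylases, had 1.54 and 1.58. Mef2a and Zeb2, transcription factors of microglia, had 1.34 and 1.35 in FGR and 1.32 and 1.32 in Control. The 17 microglial transcription factors summed to a ratio of 1.14 in FGR and 1.16 in Control.

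Ribosomal protein mRNAs were the group most evenly lower. All 80 measured, of 83 in the files, had a ratio below 1 in each library, and 75 of them were past 1.2-fold lower in both, where 2.8% of all measured genes were. The list summed to 63976 CPM in FGR Malat1-rich barcodes, against 93631 in the others, a ratio of 0.683 (0.679 to 0.688). In Control the sums were 65062 and 94992, a ratio of 0.685 (0.681 to 0.689). Rps7 of the small subunit stood at 669 CPM in FGR, against 1128, a ratio of 0.593 (0.557 to 0.632), and at 752 in Control, against 1207, a ratio of 0.623 (0.591 to 0.655). Rpl39 of the large subunit had 0.613 and 0.631. Among translation factors, Eef1b2, which recharges the elongation factor that brings tRNA to the ribosome, had 0.599 (0.547 to 0.655) in FGR and 0.604 (0.559 to 0.651) in Control. Eef1a1 itself had 0.647 and 0.723, and Tpt1, whose mRNA is regulated together with ribosomal ones, had 0.651 and 0.675. The 16 translation factors summed to a ratio of 0.713 in FGR and 0.763 in Control.

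Other cytoplasmic mRNAs followed with smaller differences. Of 26 measured cytosolic and cytoskeletal genes, 22 in FGR and 25 in Control lay below 1, as did 44.1% and 36.8% of all measured genes, and 3 were past 1.2-fold lower in both, where 2.8% of all were. Tmsb4x, which binds actin monomers, stood at 10495 CPM in FGR, against 15013, and at 11796 in Control, against 16238, ratios of 0.699 and 0.726. The glycolytic enzyme gene Gapdh had 0.745 and 0.754. Nuclear-coded genes of oxidative phosphorylation summed to 0.824 in FGR and 0.759 in Control, with 31 and 35 of 35 measured below 1. Uqcrh, a subunit of complex III, had 0.607 in FGR and 0.634 in Control. Secreted and membrane proteins of microglia, translated at the endoplasmic reticulum, summed to 0.818 (0.814 to 0.822) in FGR and 0.937 (0.933 to 0.941) in Control. Tyrobp, the signalling adaptor of Trem2, was lower in both, at 0.741 and 0.779. Cst3, the secreted protease inhibitor cystatin C, had 0.724 in FGR and 0.859 in Control.

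Immediate early genes, transcribed within minutes of a stimulus, summed to a ratio of 1.02 (1.01 to 1.03) in FGR and 1.16 (1.15 to 1.17) in Control. The FGR sum turned to 0.937 with every barcode counted equally and to 0.866 in the top 2%. In FGR 2 of 22 measured were past 1.2-fold higher and 3 lower, and in Control 4 and 0, where 7.55% and 4.5% of all measured genes were in FGR and 5.79% and 4.26% in Control. Fosb had 1.28 in FGR and 1.29 in Control, and Jun had 1.14 and 1.26. Rgs1, an inhibitor of G protein signalling, had 1.27 and 1.22. The lower genes in FGR were Ier3, a stress response gene, with 0.621 in FGR and 0.981 in Control, Nfkbiz, a regulator of NF-kB signalling, with 0.664 and 0.923, and Socs3, a brake on cytokine signalling, with 0.764 and 0.912.

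**Figure D3:**
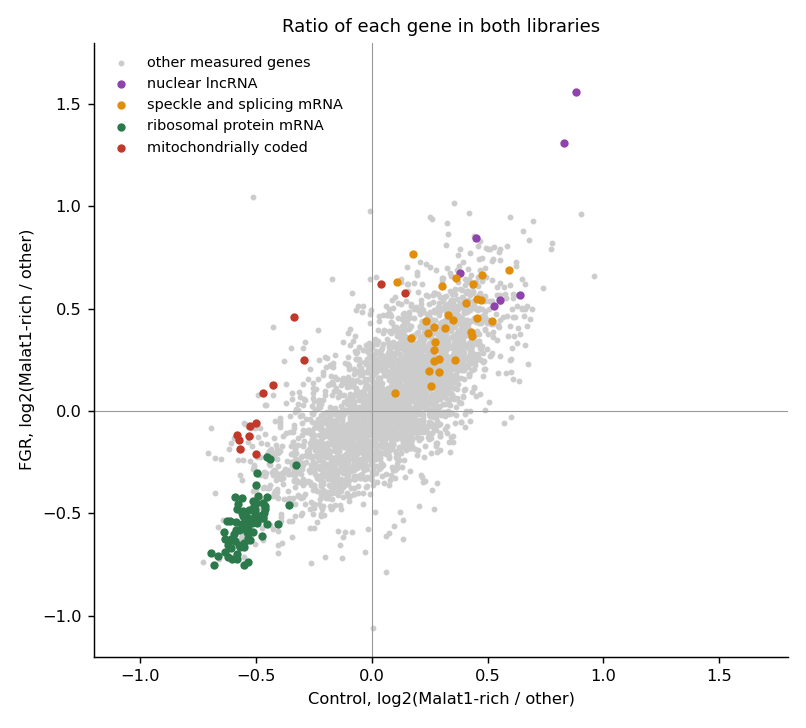
Each of the 3353 measured genes by its log2 ratio of Malat1-rich over other barcodes in FGR (vertical) and Control (horizontal). Ribosomal protein genes form a compact group low in both libraries, nuclear lncRNAs and splicing mRNAs lie in the upper right, and the mitochondrially coded genes lie above the diagonal. 2 genes fall outside the axes.

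Gene by gene the libraries gave similar ratios. Across the 3353 measured genes, which are not independent replicates, the log2 ratios of FGR and Control had a Pearson correlation of 0.711 and a Spearman correlation of 0.726, and 77.4% had the same sign. Most ratios were small: 93.9% of genes lay within 1.5-fold in both libraries. By the rule of size, an interval wholly beyond 1.5-fold, 24 genes (0.716%) were higher and 14 (0.418%) lower in FGR, and 5 (0.149%) higher and 3 (0.0895%) lower in Control. Passing in both were 2 higher (0.0596%), Gm26917 and Arrdc3, and 3 lower (0.0895%), Eef1b2, Rps7 and Rpl39. The count of lower genes in both was 0 under 7 alternatives, among them a minimum of 3000 UMIs, the top 10% and standardised depth. Arrdc3, an arrestin-like adaptor of receptor trafficking, stood at 237 CPM in FGR, against 121, a ratio of 1.95 (1.75 to 2.17), and at 121 in Control, against 64.5, a ratio of 1.87 (1.64 to 2.13).

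With the limit at 1.2-fold, chosen after the data were seen, 253 genes (7.55%) were higher and 151 (4.5%) lower in FGR, 194 (5.79%) and 143 (4.26%) in Control, and 97 (2.89%) and 94 (2.8%) in both. Among the 3204 genes with at least 50 CPM in the other barcodes of both libraries, 91 were higher and 94 lower in both. The rest of the 97 were measured only through their level in the Malat1-rich barcodes. They remain in the comparisons of length, gene type and sequence below. Of the 94 lower in both, 75 coded for ribosomal proteins. The 97 higher in both were varied. They included Prpf39, a splicing factor of the U1 particle, with ratios of 1.73 in FGR and 1.71 in Control. Golgb1, which codes for the large Golgi protein giantin, had 1.58 and 1.94. The ubiquitin ligase family genes Trim56 and Trim44 had 1.77 and 1.84 in FGR and 1.71 and 1.57 in Control. Nabp1, a single-stranded DNA binding protein, had 1.79 and 1.60.

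Genes higher in both libraries were long and those lower in both were short. The median exonic length (all exons of a gene merged) was 9734 bases for the 97 higher genes, 1775.5 for the 94 lower and 5047 for all measured. The median genomic span was 51888, 3785 and 27109 bases. With the measured genes ordered by exonic length into 5 groups of equal number, the median log2 ratio was -0.17 in FGR and -0.16 in Control in the shortest group, and 0.26 in both in the longest. The Spearman correlation of exonic length with the log2 ratio was 0.590 in FGR and 0.588 in Control across 3353 genes, and 0.572 and 0.569 without the ribosomal protein genes. The 46 measured genes that are not protein coding had a median log2 ratio of 0.28 in FGR and 0.32 in Control, beside 0.04 and 0.09 over all measured. Of these 46, 13 (28.3%) were among the 97 higher, where 2.89% of all measured genes were. Among the 13 was 2900060B14Rik, measured only through its level in the Malat1-rich barcodes. A run of at least 10 A in the longest transcript, leaving out its last 50 bases and so the run shown for 2900060B14Rik, occurred in 25.8% of the higher genes, 2.13% of the lower and 23.3% of all measured.

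**Figure D4:**
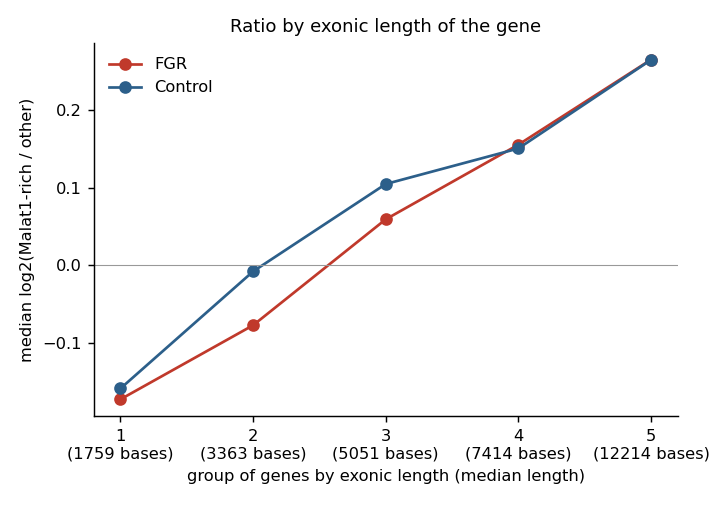
Median log2 ratio of Malat1-rich over other barcodes in 5 groups of the 3353 measured genes ordered by exonic length, with the median length of each group under the axis. The median was higher in each longer group, from -0.17 in FGR and -0.16 in Control to 0.26 in both.

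Many ribosomal protein mRNAs begin with a C followed by a run of C and T, the 5′ terminal oligopyrimidine tract by which their translation is regulated. A C at the annotated start followed by at least 4 C or T was sought on the sense strand in RefSeq promoter records (GRCm38.p6). Of the 3353 measured genes, 2676 had a promoter record. The tract was present in 16 of 72 genes lower in both libraries (22.2%), 1 of 77 higher (1.30%) and 88 of all 2676 (3.29%). Among all 32851 promoter records 2.51% held it. That is a share of records and not of genes, so it cannot be set beside the others. Shown are 5 of the 16 lower genes that hold the tract at the start, and 3 of the higher genes beside them, chosen after their values were seen. The 5 are examples and not a ranking by ratio. Each line gives 15 bases before and 15 from the start, which is the 16th base, with any run of at least 5 C and T that crosses the start in capitals.
Rps15a, chr7:118116133-118116162, minus strand: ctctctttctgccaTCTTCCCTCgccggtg
Fau, chr19:6057932-6057961, plus strand: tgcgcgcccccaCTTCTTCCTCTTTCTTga
Rpl15, chr14:18270972-18271001, minus strand: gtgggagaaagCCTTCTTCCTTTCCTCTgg
Rps10, chr17:27635230-27635259, minus strand: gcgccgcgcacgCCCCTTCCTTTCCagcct
Rps27, chr3:90213634-90213663, minus strand: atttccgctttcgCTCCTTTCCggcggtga
Ankrd11, chr8:123042270-123042299, minus strand: tcatgcggccggcgcccgccgcagccaccg
Prpf39, chr12:65036319-65036348, plus strand: cggcgcgtgcgcagtgtgatcccgaagagg
Trim44, chr2:102400886-102400915, minus strand: ggcgcggcgcgcggcgaagagaccgagcgg
Both sets were picked with these features known, so the lines illustrate the tract and show no difference. Over the 56 lower ribosomal protein genes with a promoter record, 14 (25%) held the tract at the annotated start, and 28 (50%) passed the looser rule.

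The lists changed along the whole range of the Malat1 share and not only in the top 5%. From the 25% of barcodes with the least Malat1 through the bands above it to the top 5%, the summed level of ribosomal protein mRNAs was 117438, 92528, 83248, 73424, 70825 and 63976 CPM in FGR. In Control it was 120882, 95169, 83584, 75111, 69684 and 65062. The nuclear lncRNA list ran the other way, with 978 in the lowest and 2171 in the highest band in FGR and 1036 and 1943 in Control. Over single barcodes, which share their library, the Spearman correlation of the Malat1 share with the ribosomal protein share was -0.426 in FGR and -0.444 in Control, and among barcodes of 3000 to 5000 UMIs it was -0.300 and -0.352. The correlation with the mitochondrially coded share was -0.323 in FGR and -0.341 in Control.

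**Figure D5:**
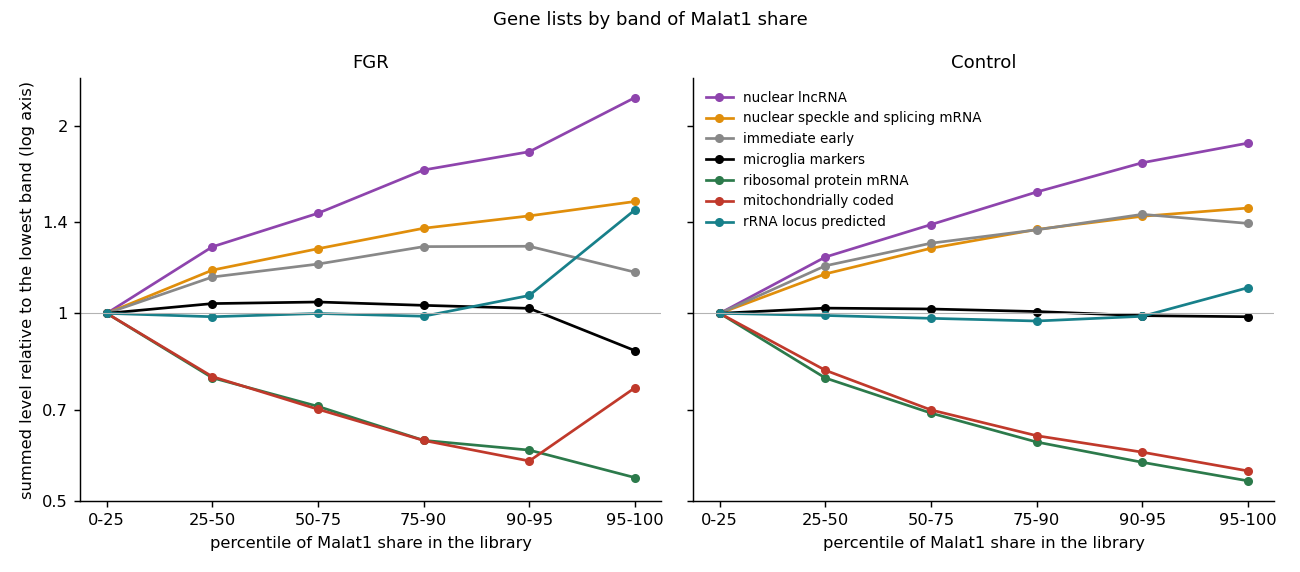
Summed level of 7 gene lists in bands of barcodes by percentile of Malat1 share, FGR left and Control right, each relative to the lowest band on a log axis. Ribosomal and nuclear lists moved steadily in opposite directions in both libraries. In the top band the rRNA locus level rose in both libraries, more in FGR, while the mitochondrially coded level turned upward in FGR only.

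In the top band the libraries differed in mitochondrial RNA. The 13 mitochondrially coded genes summed to 21756 CPM in FGR Malat1-rich barcodes, against 22786 in the others, a ratio of 0.955 (0.944 to 0.965). In Control the sums were 16398 and 23415, a ratio of 0.7003 (0.693 to 0.708). Cytochrome oxidase subunit mt-Co2 had a ratio of 0.881 in FGR and 0.673 in Control. In FGR 6 of the 13 genes had a ratio above 1, with mt-Nd6 at 1.49 (1.24 to 1.77), and in Control 2 of 13 did. Between FGR and Control the level was 1.33 times as high in Malat1-rich barcodes (1.31 to 1.35) and 0.973 times in the others.

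The FGR value depended on which barcodes entered, in either direction. Between 1500 and 2000 UMIs the mitochondrially coded level in FGR was 39696 CPM in Malat1-rich barcodes, against 39501 in the others. Between 3000 and 5000 UMIs it was 16415, against 19174. With a minimum of 3000 UMIs the ratio was 0.755 in FGR and 0.661 in Control. It turned above 1 in FGR with every barcode counted equally (1.09), at 1000 UMIs (1.05), with no mitochondrial limit (1.004) and in the top 2% (1.26). Leaving out barcodes with over 1% markers of other cells gave 0.872 in FGR and 0.6999 in Control. Of the Malat1-rich barcodes, 66 in FGR (15.31%) and 19 in Control (3.56%) had a mitochondrial share above the 95th percentile of the other barcodes, with a median of 2189.5 and 2005 UMIs. A low share of both mitochondrial and ribosomal protein UMIs, each within the range of the lowest 25% of the other barcodes, was found in 125 FGR barcodes (29.0%), against 13.1% of the others, and in 179 Control barcodes (33.5%), against 11.97%. The Malat1-rich barcodes thus held some that were poor in both kinds of RNA and others, shallower, that were rich in mitochondrial RNA.

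The predicted genes Gm42418 and AY036118, which overlap on chromosome 17 and are known to collect ribosomal RNA reads, showed the same dependence on depth. Gm42418 stood at 25226 CPM in FGR Malat1-rich barcodes, against 16822 in the others, a ratio of 1.4996 (1.48 to 1.52), and at 20520 in Control, against 18425, a ratio of 1.11 (1.10 to 1.12). Summed with AY036118 and Gm26917, the ratio was 1.47 in FGR and 1.11 in Control, and with a minimum of 3000 UMIs it was 1.05 in FGR and 0.972 in Control, so that the direction turned in Control. The level was high in all shallow FGR barcodes, with 65755 CPM in Malat1-rich ones of 1500 to 2000 UMIs, against 68913 in the others of that depth. Reads of these overlapping genes cannot be assigned to one of them with certainty.

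Some induced genes were lower in the Malat1-rich barcodes of FGR and not past the limit in Control. Cxcl10, a chemokine induced by interferon, stood at 68.1 CPM in FGR Malat1-rich barcodes, against 164 in the others, a ratio of 0.415 (0.338 to 0.504), from 102 UMIs in 22 barcodes. Its Control levels were 16.97 and 21.9 CPM, with a ratio of 0.774 (0.534 to 1.09), from 34 UMIs in 8 barcodes. Cxcl10 did not reach the measured level in both libraries. Its Control interval lay below 1 in the top 10% (0.532), with ranking on thinned UMIs (0.523) and with levels from the unused part (0.537). Tnfaip3, an inhibitor of NF-kB signalling, had 0.635 in FGR and 0.909 in Control, beside Nfkbiz and Ier3 above. In the top 2% the Control intervals of Nfkbiz (0.814) and Ier3 (0.884) also lay below 1. Lyz2, the lysozyme of macrophages, had 0.580 in FGR and 1.04 in Control. Heat shock genes Hspa1a and Hspa1b were higher in FGR, at 1.82 (1.68 to 1.97) and 1.89 (1.70 to 2.10), and had 1.26 and 1.25 in Control. With the other barcodes standardised on depth, Hspa1b in Control had 1.06, with an interval that held 1. The splicing-related gene Rsrp1 had 1.70 in FGR and 1.13 in Control. A difference between the libraries in these ratios was not tested.

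Genes past 1.5-fold between FGR and Control were counted within the Malat1-rich barcodes and in the rest. Of 3691 genes measured in the Malat1-rich barcodes, 79 (2.14%) were past 1.5-fold higher in FGR and 23 (0.623%) lower. In the other barcodes 74 (2.17%) and 37 (1.08%) of 3418 were. The counts cannot be set against each other, because the Malat1-rich barcodes hold far fewer UMIs and the measured genes differ. Both comparisons come from the same pair of libraries. Among the 79 were all 5 measured oligodendrocyte markers, both measured astrocyte markers and 2 of 3 measured vascular and fibroblast markers. Without barcodes over 1% other-type markers 56 genes were higher and 16 lower. The phosphatase gene Dusp1 was 4.22 times as high in FGR as in Control among Malat1-rich barcodes (3.96 to 4.50) and 4.71 times among the others. Tsc22d3, a glucocorticoid-induced gene, had ratios of 2.85 and 2.96, the transcriptional inhibitor Id2 had 4.42 and 4.51, the chaperone gene Hspb1 had 6.54 and 6.69, and Sertad1, lower in FGR, had 0.386 and 0.398. Ratios nearer to 1 among Malat1-rich barcodes were found for Cxcl10, with 4.01 (2.70 to 6.10) beside 7.49, for Tnfaip3, with 2.92 beside 4.17, for the Notch target Hes1, with 0.433 beside 0.275, and for Rsrp1, with 0.610 beside 0.404. Neat1 was 1.56 times as high in FGR (1.41 to 1.73) among Malat1-rich barcodes and 1.28 times among the others. The ribosomal protein list had ratios of 0.983 and 0.986.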

How the data were processed

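The authors deposited raw UMI counts per gene and barcode for 1 FGR and 1 Control library, with no filter on barcodes. Per the file headers, the software was Cell Ranger 4. Per the submitters' processing notes, it was Cell Ranger 3.0, followed by Seurat 5.0, with build mm10. No source states whether strand was used in counting. All barcodes held 50833332 UMIs in FGR and 58988805 in Control. Of 8647 and 10706 barcodes with at least 1500 UMIs, 2 and 3 were removed for few genes and 28 and 17 for mitochondrial UMIs. Malat1-rich barcodes held 1498558 UMIs other than Malat1 in FGR and 2003468 in Control.

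Counts were summed per library and class and divided by all UMIs other than Malat1. Levels have exact Poisson intervals, ratios exact conditional intervals and shares Clopper-Pearson intervals, all at 95% (SciPy 1.17.1). No test was possible with 1 library per group. Cell types were not clustered and doublets were kept. Symbols with several IDs (38) were summed. All 3353 measured genes were found in GENCODE M21, and 2676 had a RefSeq promoter. The calculation was tested on simulated data.

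The barcodes, gene lists and genes to name were chosen with earlier results of these data known. Named were all measured nuclear lncRNA and rRNA locus genes, the genes called in both libraries, up to 4 genes of each other list with the largest mean absolute log2 ratio, the markers and listed genes differing between libraries. The 12 highest and 12 lowest measured genes were added after values were seen, and Jpx, Meg3, Gas5, Clk1, Jun and others outside this rule were also named afterwards. Alternatives covered scaling, weighting, depth, filters, the share of barcodes taken, ranking and limits of level and fold. A few listed genes are not reported here.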

Additional observations from a re-analysis of the deposited data

Results flagged for a closer look

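Only the gene lists and a set of named genes were screened for opposite directions in the libraries, not all measured genes. Among those screened, 4 genes lay on opposite sides of 1, with both intervals clear of 1, and the difference was not tested. The share of all measured genes that would do so was not counted, so the number 4 cannot be judged. Of the 3353 measured genes, 77.4% had the same sign in both libraries. Cx3cr1, the fractalkine receptor, had a Malat1-rich over other ratio of 0.900 in FGR and 1.12 in Control. Tmem119, the gene of the sort reporter, had 0.939 and 1.07. Fos, an immediate early gene, had 0.916 and 1.15. Hes1, a Notch target, ran the other way with 1.24 and 0.786. With a minimum of 3000 UMIs all 4 FGR ratios crossed to the side of Control, at 1.05 for Cx3cr1, 1.0027 for Tmem119, 1.09 for Fos and 0.840 for Hes1. With the other barcodes standardised on depth, Fos crossed in FGR at 1.03, while the FGR ratios of Cx3cr1 (0.889), Tmem119 (0.903) and Hes1 (1.23) did not cross. In the top 10% Cx3cr1 and Tmem119 also crossed, at 1.02 and 1.01.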

How the results depend on the processing

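No paired analysis was possible because each group is 1 library, and no replicate could be left out. The ratios of median UMIs and of the nuclear lncRNA, speckle and splicing, and ribosomal protein lists kept their direction in both libraries under the alternatives run. The mitochondrially coded ratio in FGR turned to 1.09 with every barcode counted equally, 1.05 at 1000 UMIs, 1.004 with no mitochondrial limit and 1.26 in the top 2%.

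The 2 genes higher and 3 lower in both libraries past 1.5-fold depended on the settings. Higher were 7 with every barcode counted equally, 4 at 1000 UMIs, 1 at 3000 UMIs or with levels from the unused part, 4 without barcodes over 1% other-type markers, 12, 0 and 95 with a minimum level of 10, of 200 and with none, and 0 at a fold of 2. Lower were 7 on the scale of all UMIs, 5 at 1000 UMIs, 11 in the top 2%, 6 with no minimum level, 1 without other-type barcodes, without the 6% deepest barcodes or with the Control threshold in both libraries (an alternative chosen after seeing the data), and 0 at 3000 UMIs, a mitochondrial limit of 5%, the top 10%, ranking on thinned UMIs, levels from the unused part, standardised depth or a fold of 2. The added limit of 1.2-fold gave 97 and 94. The 97 became 64 on the scale of all UMIs, 42 at 3000 UMIs and 46 with levels from the unused part.

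Between FGR and Control within Malat1-rich barcodes, 79 genes were higher and 23 lower. Higher were 119 in the top 2%, and higher and lower were 250 and 42 at a minimum level of 10, 37 and 11 at 200, 662 and 51 with none, 50 and 3 at a fold of 2, and 153 and 142 at 1.2-fold.

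Single values also turned in FGR. The immediate early list had 0.988 on the scale of all UMIs, 0.937 with barcodes counted equally, 0.993 at 1000 UMIs and 0.866 in the top 2%. The glucocorticoid response list, 1.05 as measured, had 0.973 with barcodes counted equally and 0.881 in the top 2%, where mt-Co2 had 1.1999. At 3000 UMIs Cx3cr1 had 1.05, Tmem119 1.0027, Hes1 0.840 and Fos 1.09. Cx3cr1 had 1.02 and Tmem119 1.01 in the top 10%, Tmem119 had 1.01 with levels from the unused part and 1.0029 without other-type barcodes, and Fos had 1.03 at standardised depth. In Control at 3000 UMIs the rRNA locus list had 0.972, Gm42418 0.966 and AY036118 0.985. The cause was not tested for any of these except that fewer genes or barcodes enter under a higher minimum. Depth limits the gene-level calls: the Malat1-rich barcodes hold far fewer UMIs than the others, so genes near 50 CPM have wide intervals.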
